A study of Mus musculus with 4 samples.

Results

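The genes described here are 10 genes of the ATF4 stress response and of serine and one-carbon metabolism in mouse retinal organoids. They were chosen by symbol in the deposited expression table, as Atf4, Atf5, Ddit3, Trib3, Chac1 and Asns for the stress axis and Phgdh, Psat1, Shmt2 and Mthfd2 for the enzymes. All 10 were found among the 55426 rows, each with 1 expressed row. A second row named Ddit3 (ENSMUSG00000116429) was listed at 0 in every library and was not used. All 10 passed the filter on low values, a library mean of 1 FPKM or more. FPKM scales the fragments of a gene by transcript length and by library depth, so levels can be compared between genes.

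Retinal organoids are aggregates of pluripotent cells that are grown towards retinal progenitors in culture. Every library came from the same line, Rx:GFP Mettl3 KO with Dox-inducible HA-METTL3, differentiated for 6 days in GMEM medium with KSR and AGN (0.1 µM). The groups were 2 untreated libraries and 2 libraries of cells given doxycycline (Dox) at 2 µg/ml for 6 days, and both groups share the knockout, the reporter, the transgene and the medium. The labels describe 1 line, with no second clone and no group without the transgene, so a response to Dox itself and one to the transgene cannot be told apart. The sample titles carry the letters EV, which the labels do not explain. Mettl3, the gene of the catalytic subunit of the N6-methyladenosine writer, was listed at 40.33 and 37.98 FPKM untreated and at 45.20 and 46.37 FPKM with Dox. That difference did not pass the threshold (log2 fold change 0.22, adjusted p = 0.122 in limma), and gene-level values do not separate the transgene from the knocked-out locus.

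ATF4 is a bZIP transcription factor at the end of the integrated stress response. Kinases that sense unfolded protein, missing amino acids, double-stranded RNA or haem shortage phosphorylate the initiation factor eIF2alpha, which slows translation in general but favours that of the Atf4 and Atf5 messages, so that much of the control lies in translation and is not seen in RNA levels. ATF4 then activates genes for amino acid synthesis and transport, among them the enzymes that make serine from a glycolytic intermediate and pass its carbon to folate in mitochondria. Proliferating progenitors use these routes for nucleotides, glycine and glutathione.

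Fitted library depth was between 31940000 and 34680000 fragments, so counting error was small for most of the genes. Trib3, the lowest, rested on about 240 to 351 fragments per library and Psat1 on about 7940 to 9706, counted on the longest annotated transcript. With a threshold of 0.05 on the adjusted p of limma, 1297 of 13931 genes passed between untreated and Dox libraries, a background of 9.31%, with 4.44% higher and 4.87% lower. Groups that did not overlap were found for 53.4% of all tested genes, and an unadjusted p below 0.05 for 23.9%. Nothing in the labels says that the 2 libraries of a group came from separate cultures, so p-values measure the spread between these libraries, which may be technical.

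Of the 10 genes, 2 were higher with Dox past the threshold (Ddit3 and Atf5) and 1 was lower (Phgdh). The other 7 did not pass. In 7 genes the Dox pair was entirely above the untreated pair, in 2 (Phgdh and Psat1) it was entirely below, and in Asns the groups overlapped. Over all tested genes the shares were 26.5% entirely above and 26.9% entirely below. At an unadjusted p below 0.05 in limma, 7 were higher and 1 lower, beside 23.9% of all tested genes in either direction. The median log2 fold change of the 10 genes was 0.29, beside -0.0042 over all tested genes, and none of the changes reached 2-fold in linear FPKM. The median was 0.36 for the 6 stress genes and 0.076 for the 4 enzymes, of which 2 had a positive and 2 a negative value.

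**Figure D1:**
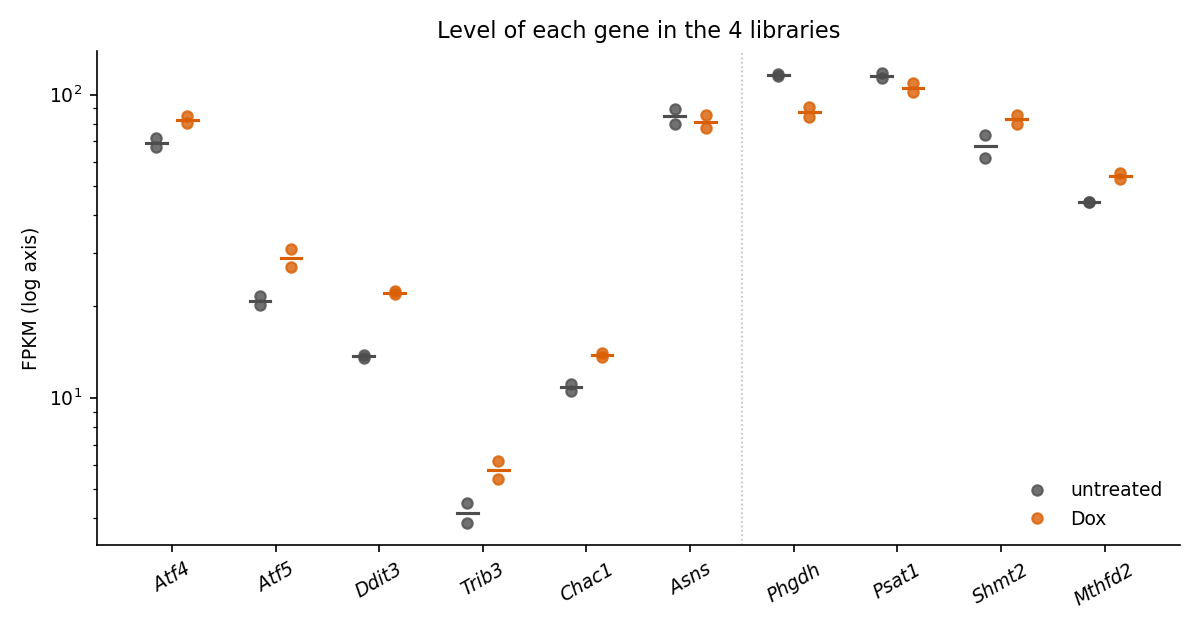
FPKM on a log axis for the 10 genes, 1 point per library (untreated grey, Dox orange) and a bar at each group mean, with the stress genes left and the enzymes right of the dotted line. Ddit3 shows the widest gap between groups and is higher with Dox, Phgdh is lower with Dox, and the points of Asns overlap.

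Ddit3 showed the largest change of the 10. It encodes CHOP, a bZIP factor induced late in the stress response and linked to cell death. The gene (ENSMUSG00000025408) lies at chr10:127290774-127296288 on the plus strand of GRCm38. Its level was 13.52 and 13.84 FPKM untreated and 22.47 and 21.97 FPKM with Dox. Both Dox libraries stood well above the untreated pair, and replicates differed little. The means were 13.7 ± 0.226 and 22.2 ± 0.354 FPKM (SD, n = 2 each), a 1.62-fold rise. On the log2 scale the change was 0.66 with an SE of 0.0732 (adjusted p = 0.00488 in limma). Without untreated replicate 1 the adjusted p was 0.0528, and without Dox replicate 1 it was 0.0511, with log2 fold changes of 0.65 in both fits. Exons of Ddit3 overlap those of Mars on the opposite strand by 68 nt, or 3.97% of the exon length, and those of the second Ddit3 entry by 105 nt. Mars, the methionyl-tRNA synthetase gene, was itself at a log2 fold change of 0.19 and did not pass (adjusted p = 0.209).

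Atf5 was the other gene that rose. ATF5 is a bZIP factor related to ATF4, controlled by a similar translational switch and known for the mitochondrial stress response and for keeping neural progenitors undifferentiated. Atf5 (ENSMUSG00000038539, chr7:44812256-44816658, minus strand) was at 21.57 and 20.19 FPKM untreated and at 27.02 and 30.84 FPKM with Dox. The groups did not overlap, and the Dox replicates differed more than the untreated ones. The means were 20.9 ± 0.976 and 28.9 ± 2.70 FPKM (SD, n = 2 each), a 1.39-fold rise. On the log2 scale it was 0.45 with an SE of 0.0914 (adjusted p = 0.0404 in limma). This call sat just inside the threshold. It was lost without any 1 of the 4 libraries (adjusted p between 0.0724 and 0.223, log2 fold change 0.36 to 0.54) and with the replicate block (adjusted p = 0.0681). Exons of Atf5 overlap those of Nup62 and Il4i1 on the opposite strand by 82 nt each.

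Atf4 itself moved less. Atf4 (ENSMUSG00000042406, chr15:80255184-80257541, plus strand) was at 71.65 and 66.93 FPKM untreated and at 80.55 and 84.82 FPKM with Dox. Both Dox libraries were higher, by 19.3% on average. The means were 69.3 ± 3.34 and 82.7 ± 3.02 FPKM (SD, n = 2 each). The log2 fold change of 0.25 had a 95% interval of 0.076 to 0.43 and did not pass after adjustment (adjusted p = 0.0974 in limma). ATF4 protein was not measured.

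The targets Trib3, Chac1 and Asns complete the axis, and none of them passed the threshold. Trib3 encodes a pseudokinase that is induced by ATF4 and CHOP and feeds back on them. Trib3 (ENSMUSG00000032715, chr2:152337422-152344032, minus strand) was at 4.49 and 3.86 FPKM untreated and at 6.16 and 5.40 FPKM with Dox. The groups did not overlap, with a log2 fold change of 0.39 (95% interval 0.087 to 0.69, adjusted p = 0.125 in limma). Chac1 encodes an enzyme that degrades glutathione and is a sensitive ATF4 target. Chac1 (ENSMUSG00000027313, chr2:119351229-119354381, plus strand) was at 11.13 and 10.53 FPKM untreated and at 14.01 and 13.61 FPKM with Dox. Here too both Dox libraries were the higher ones, with a log2 fold change of 0.32 (95% interval 0.12 to 0.53, adjusted p = 0.0762 in limma). Asns encodes asparagine synthetase, a classical target of the amino acid response. Asns (ENSMUSG00000029752, chr6:7675169-7693254, minus strand) was at 79.66 and 89.58 FPKM untreated and at 85.37 and 77.25 FPKM with Dox. Its groups overlapped: the highest value was untreated and the lowest was with Dox, but the middle values crossed. The log2 fold change was -0.056 (95% interval -0.28 to 0.17, adjusted p = 0.759 in limma), and it changed sign when untreated replicate 2 (0.027) or Dox replicate 2 (0.015) was left out.

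ATF4 with a C/EBP partner binds a composite element of the form TGATGNAA, so the RefSeq promoters of the 10 genes (GRCm38.p6, 250 bases before to 50 after a start site) were searched for it on both strands. The search covered 12 promoters, since Atf5 and Psat1 have 2 each. A match was found in Chac1, Trib3 and Asns and in none of the other 7 genes, against 3.97% of 32851 promoters of the same length. The matching stretches are shown because they name the 3 genes, with the match in capitals and the rest in lower case, 5′ to 3′ on the strand of the gene.
Chac1, chr2:119351023-119351082: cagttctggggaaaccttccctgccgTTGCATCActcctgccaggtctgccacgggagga
Trib3, chr2:152344028-152344057: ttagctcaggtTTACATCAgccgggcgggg
Asns, chr6:7693214-7693243: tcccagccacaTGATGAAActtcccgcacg
The Chac1 match begins 193 bases before the start site and is the reverse complement of the element, as is the match in Trib3, which begins at base 15 after the RefSeq start. The Asns match begins 23 bases before the RefSeq start and falls inside an exon of the GENCODE M21 annotation, which starts the gene further upstream. The 3 genes with a match were not those that passed the threshold, and Ddit3, Atf5 and Phgdh had no match in this window. A match is a string of letters and no measurement of binding.

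**Figure D2:**
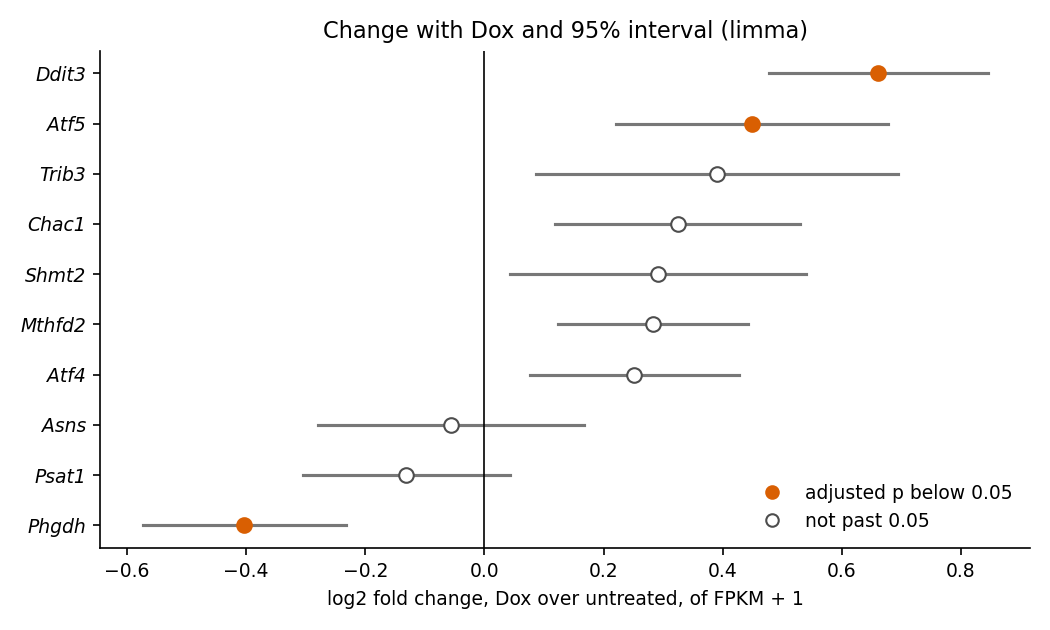
Log2 fold change of FPKM + 1, Dox over untreated, with 95% intervals from limma, genes sorted by value and filled where the adjusted p was below 0.05. Ddit3 (0.66) and Atf5 (0.45) are filled on the right and Phgdh (-0.40) on the left, and the intervals of Asns and Psat1 cross 0.

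Among the enzymes Phgdh went against the stress genes. PHGDH, 3-phosphoglycerate dehydrogenase, makes the first committed step of serine synthesis. Phgdh (ENSMUSG00000053398, chr3:98313170-98339990, minus strand) was at 117.11 and 115.48 FPKM untreated and at 90.93 and 84.55 FPKM with Dox. Both Dox libraries were clearly below the untreated pair. The means were 116.3 ± 1.15 and 87.7 ± 4.51 FPKM (SD, n = 2 each), and the level fell by 24.6%. On the log2 scale the change was -0.40 with an SE of 0.0681 (adjusted p = 0.0217 in limma). The call was lost without any 1 of the 4 libraries (adjusted p between 0.0613 and 0.158, log2 fold change -0.46 to -0.35) and with the replicate block (adjusted p = 0.0647). A processed pseudogene, Phgdh-ps1, was listed at 1.20 and 1.24 FPKM untreated and at 1.04 and 0.94 FPKM with Dox, so reads shared with it could be a small part of the Phgdh value.

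Psat1 and Psph encode the next enzymes of the same route, phosphoserine aminotransferase and phosphoserine phosphatase. Psat1 (ENSMUSG00000024640, chr19:15904678-15947337, minus strand) was at 113.34 and 117.54 FPKM untreated and at 109.07 and 101.70 FPKM with Dox. Both Dox libraries were lower, but the log2 fold change of -0.13 had a 95% interval of -0.30 to 0.042 and did not pass (adjusted p = 0.329 in limma). Psph, which is not among the 10, was at 14.89 and 15.01 FPKM untreated and at 18.94 and 17.44 FPKM with Dox, a log2 fold change of 0.27 that did not pass either (adjusted p = 0.118). Of these 3 steps Phgdh alone passed, and differences between the steps were not tested.

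Both mitochondrial folate enzymes had positive values short of the threshold. SHMT2, mitochondrial serine hydroxymethyltransferase, splits serine into glycine and a folate-bound one-carbon unit. Shmt2 (ENSMUSG00000025403, chr10:127517123-127522444, minus strand) was at 73.45 and 61.82 FPKM untreated and at 80.05 and 85.43 FPKM with Dox. The untreated libraries were spread widely but stayed below both Dox libraries (log2 fold change 0.29, 95% interval 0.043 to 0.54, adjusted p = 0.153 in limma). Without untreated replicate 1 it was 0.41 and without untreated replicate 2 it was 0.17. MTHFD2 oxidises that one-carbon unit and is abundant in embryonic and proliferating cells. Mthfd2 (ENSMUSG00000005667, chr6:83305691-83325908, minus strand) was at 44.15 and 44.12 FPKM untreated and at 52.81 and 55.05 FPKM with Dox. Its groups were well apart, with a log2 fold change of 0.28 (95% interval 0.12 to 0.44), and it missed the threshold narrowly (adjusted p = 0.0558 in limma), passing only with robust estimation (adjusted p = 0.0495).

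Levels per length placed the synthesis enzymes highest. In untreated libraries Phgdh and Psat1 led, followed by Asns at 84.6 ± 7.01, Atf4, Shmt2 at 67.6 ± 8.22 and Mthfd2 at 44.1 ± 0.0212 FPKM (SD, n = 2 each). Phgdh and Psat1 overlapped there, as did Atf4 and Shmt2. Atf5, Ddit3, Chac1 at 10.8 ± 0.424 and Trib3 at 4.18 ± 0.445 FPKM were the lowest, in that order, without overlap. With Dox Psat1 stood alone at the top at 105.4 ± 5.21 FPKM. Below it Phgdh, Shmt2, Atf4 and Asns lay between 77.25 and 90.93 FPKM in single libraries, and each overlapped its neighbour. The order of the lower 5 genes was the same in both groups.

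Ratios within a library do not depend on library scaling. The genes paired here were chosen after their values were seen, so the ratios restate those values and are no further evidence. The Mthfd2 to Phgdh ratio of FPKM values was 0.377 and 0.382 untreated and 0.581 and 0.651 with Dox. Shmt2 to Phgdh went from 0.627 and 0.535 to 0.880 and 1.01. Within the stress axis, Ddit3 to Atf4 was 0.189 and 0.207 untreated and 0.279 and 0.259 with Dox, so that Ddit3 had the larger relative difference. Asns to Atf4 ran the other way, at 1.11 and 1.34 untreated and 1.06 and 0.911 with Dox. With 2 libraries against 2 no exact two-sided permutation p can go below 0.333.

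**Figure D3:**
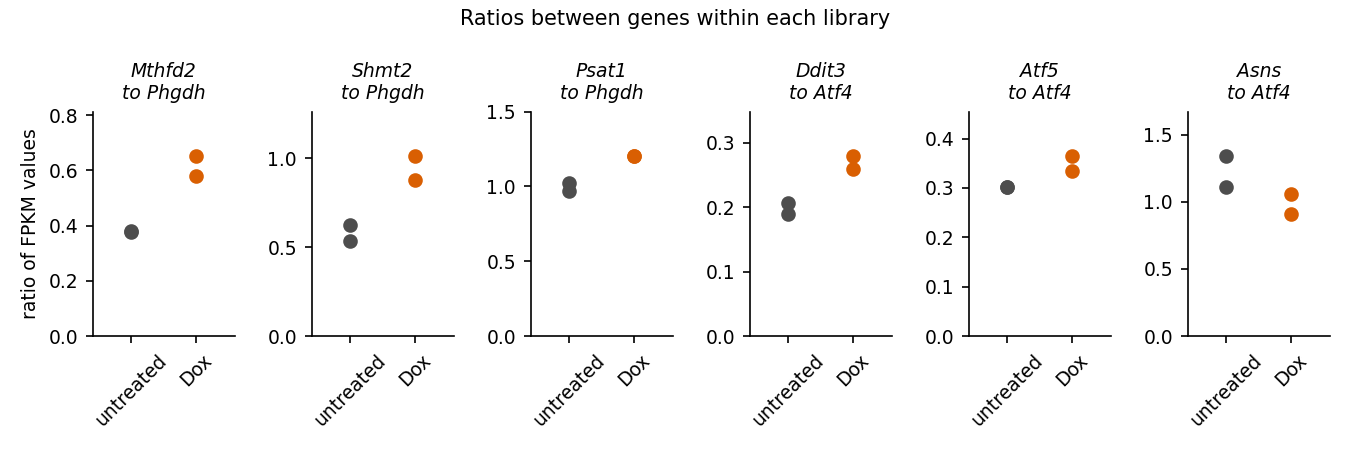
Ratios of FPKM values between named genes within each library, 1 point per library, each axis starting at 0. The ratios to Phgdh, and those of Ddit3 and Atf5 to Atf4, are higher with Dox, and Asns to Atf4 is lower.

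Genes around the 10 were read from 8 lists of related genes, of which 114 of 118 passed the filter. Past the threshold 4 were higher (Gldc, Slc7a3, Sdf2l1 and Herpud1) and 1 was lower (Vldlr), beside backgrounds of 4.44% and 4.87%. The fold change was positive for 75 of the 114, against 49.2% of all tested genes. The groups did not overlap in the higher direction for 61 and in the lower for 20, where the backgrounds were 26.5% and 26.9%. The lists were chosen with earlier results of these data known. They are described by counts and medians and were not tested as sets.

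Upstream, none of the 8 genes for the eIF2alpha kinases, eIF2alpha and its phosphatase subunits passed the threshold in limma. Beside 23.9% of all tested genes, 1 of the 8 had an unadjusted p below 0.05 in limma. That was Eif2ak3, which encodes PERK, the kinase that senses unfolded protein in the endoplasmic reticulum (ER). It was at 5.45 and 4.65 FPKM untreated and at 7.25 and 7.93 FPKM with Dox (log2 fold change 0.51, adjusted p = 0.0553 in limma), and it passed with median centring (adjusted p = 0.0410) and with robust estimation (adjusted p = 0.0408). The kinase genes for haem shortage, double-stranded RNA and amino acid shortage, Eif2ak1, Eif2ak2 and Eif2ak4, had log2 fold changes of 0.10, -0.20 and -0.049 (adjusted p from 0.258 to 0.793). The median of the list was -0.053, with 2 positive and 6 negative values. Both Dox libraries were higher in 2 of the 8 genes and lower in 4, beside backgrounds of 26.5% and 26.9%. The most abundant gene of the list, Ppp1cc, a catalytic phosphatase subunit, was at 238.9 ± 7.15 and 227.0 ± 1.68 FPKM (SD, n = 2 each).

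Of the ER chaperones and unfolded protein response genes 1 of 17 rose past the threshold and 0 fell. Before adjustment 8 were higher and 0 lower (p below 0.05 in limma), beside 23.9% of all tested genes in either direction. Both Dox libraries were the higher ones in 15 of the 17, against a background of 26.5%. Sdf2l1, a resident ER protein induced by unfolded protein, rose from 23.90 and 23.97 FPKM to 40.00 and 43.66 FPKM (log2 fold change 0.78, SE 0.0744, adjusted p = 0.00279 in limma). The median of the list was 0.21. Herpud1, an ER membrane protein of the degradation pathway that was listed with the other ATF4 targets, rose from 17.63 and 18.82 FPKM to 28.50 and 28.19 FPKM (log2 fold change 0.61, adjusted p = 0.00646 in limma). Leaving out untreated replicate 1, Dox replicate 1 or Dox replicate 2 raised that adjusted p to between 0.0613 and 0.0637. The promoters of Herpud1 and of Vldlr, a listed ATF4 target that fell, also hold the composite element. Both are shown in the same way because these were the other ATF4 targets that passed the threshold. Whether the element bears on the direction of change was not tested.
Herpud1, chr8:94386291-94386350: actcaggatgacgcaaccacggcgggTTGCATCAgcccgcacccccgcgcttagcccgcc
Vldlr, chr19:27216809-27216838: agcagcaatagTTGCATCAgcgctcctagc
The Herpud1 match begins 112 bases before the start site. The Vldlr match begins 200 bases before the second of its RefSeq starts and lies in an exon of the GENCODE M21 annotation. Of the other ATF4 targets with a promoter 6 of 16 held a match. So did 5 of 12 cytosolic aminoacyl-tRNA synthetase genes, 2 of 6 transporters and 1 of 19 other serine, glycine, folate and proline genes. The count was 0 of 14 for ER chaperones, 0 of 7 for the eIF2alpha list, 0 of 7 for mitochondrial stress and 0 of 9 for heat shock. Only genes with a promoter in the search were counted. Here a gene counted if any of its promoters matched, while the 3.97% given earlier is a share of promoters.

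Of the 16 tested other ATF4 target genes 10 had positive and 6 negative values. At an unadjusted p below 0.05 in limma 6 were higher and 1 lower, beside 23.9% of all tested genes in either direction. Past the threshold Herpud1 was the 1 of 16 that rose and Vldlr the 1 that fell. Vldlr, a lipoprotein receptor also used by reelin in neurons, went from 13.60 and 10.95 FPKM to 6.88 and 7.20 FPKM (log2 fold change -0.72, adjusted p = 0.0224 in limma). That call was lost without untreated replicate 1 (adjusted p = 0.116), Dox replicate 1 (0.134) or Dox replicate 2 (0.131). The median was 0.21. Both Dox libraries were higher in 6 of the 16 genes and lower in 2, beside backgrounds of 26.5% and 26.9%. In the other 8 the groups overlapped. Of 10 amino acid transporters 1 rose, Slc7a3, a carrier of cationic amino acids, from 5.33 and 5.48 FPKM to 10.33 and 10.53 FPKM (log2 fold change 0.84, SE 0.0891, adjusted p = 0.00418 in limma). It missed the threshold narrowly without Dox replicate 2, at a log2 fold change of 0.82. The transporter median was 0.31, with both Dox libraries higher in 8 genes and lower in 2, beside backgrounds of 26.5% and 26.9%. Of the 20 cytosolic synthetases 18 had positive values and 2, Qars and Dars, negative ones (-0.12 and -0.11), with a median of 0.083. Both Dox libraries were higher in 16 and lower in Qars and Dars, beside the same backgrounds. None of the 20 passed the threshold in limma, while 2 were higher at an unadjusted p below 0.05. Kars, the most abundant of them, was at 176.4 ± 6.50 and 195.8 ± 4.55 FPKM (SD, n = 2 each).

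**Figure D4:**
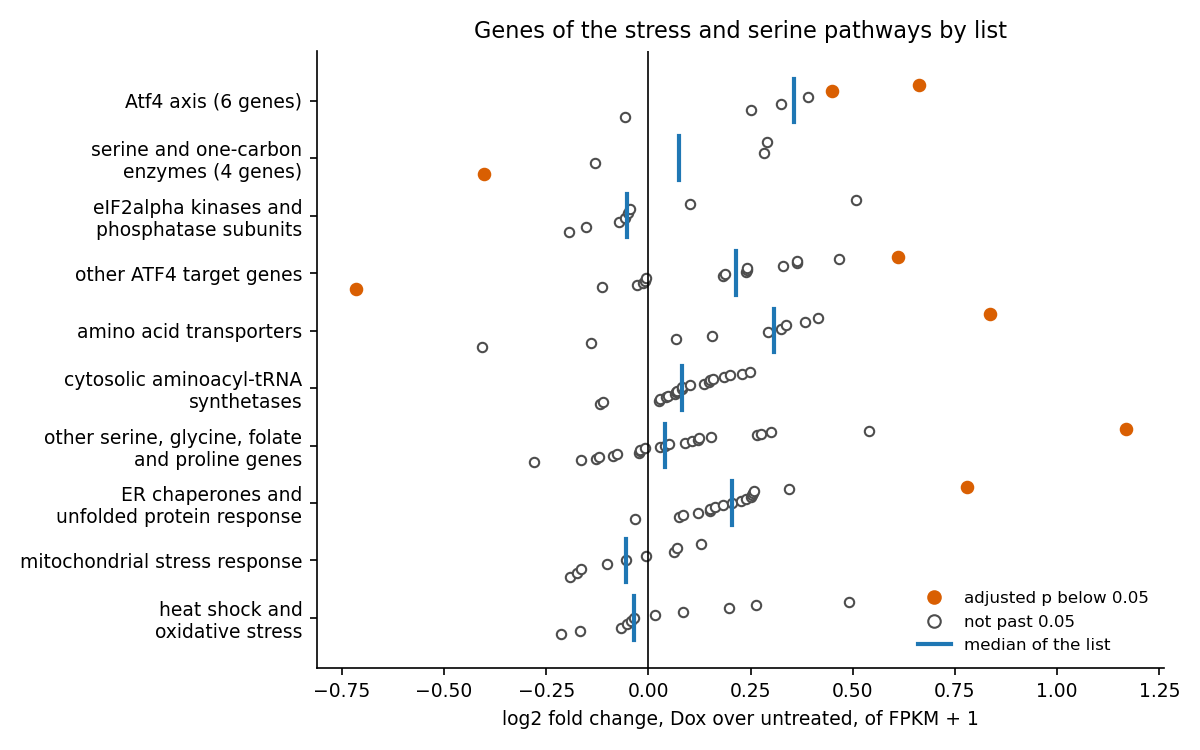
Log2 fold change of FPKM + 1 for each tested gene (points, filled where the adjusted p was below 0.05) by list, with the median of each list as a bar. The medians of the Atf4 axis (0.36), the amino acid transporters (0.31), the other ATF4 targets (0.21) and the ER chaperones (0.21) lie right of 0. Those of the mitochondrial and heat shock lists lie near 0.

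Beyond serine, 1 of 23 other genes of serine, glycine, folate and proline synthesis rose past the threshold and 0 fell. The backgrounds were 4.44% and 4.87%, and the median of the list was 0.042. Both Dox libraries were higher in 10 of the 23 and lower in 5, beside backgrounds of 26.5% and 26.9%. Gldc encodes the decarboxylase of the glycine cleavage system, which draws one-carbon units from glycine in mitochondria. It was at 46.23 and 40.97 FPKM untreated and at 93.28 and 105.22 FPKM with Dox, a 2.28-fold rise (log2 fold change 1.17, SE 0.0947, adjusted p = 0.00161 in limma). It stayed past the threshold in all 4 fits that left out 1 library. The other subunits of the system, Amt, Gcsh and Dld, had log2 fold changes of 0.28, -0.12 and -0.16 and did not pass. The cytosolic counterparts Shmt1 and Mthfd1 were at -0.021 and 0.029, short of the threshold, and whether they differ from Shmt2 and Mthfd2 was not tested.

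**Figure D5:**
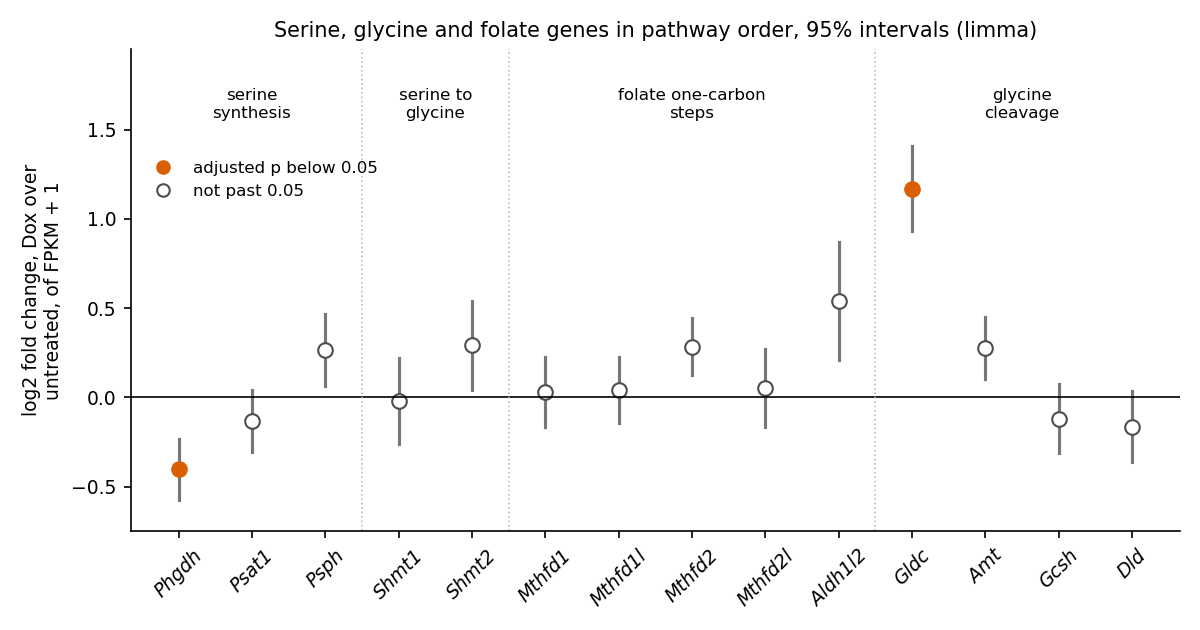
Log2 fold change of FPKM + 1 with 95% intervals from limma for serine, glycine and folate genes in pathway order, filled where the adjusted p was below 0.05. Phgdh at the start of the route is below 0 (-0.40) and Gldc at the glycine cleavage step is far above it (1.17).

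The mitochondrial and the general stress lists had medians just below 0. None of the 9 mitochondrial stress genes passed in limma (before adjustment 0 were higher and 1 lower at p below 0.05), and their median was -0.054. An unadjusted p below 0.05 in limma was found for 23.9% of all tested genes. Hspd1, the mitochondrial chaperonin HSP60, was at 461.6 ± 6.29 and 409.1 ± 12.7 FPKM (SD, n = 2 each). None of the 11 tested heat shock and oxidative stress genes passed (before adjustment 3 were higher and 2 lower at p below 0.05), with a median of -0.035. Txnrd1, a thioredoxin reductase and the most abundant of them, was at 89.2 ± 3.17 and 90.3 ± 6.42 FPKM.

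Cell type markers moved with treatment, and in bulk libraries fewer cells of a type and less RNA per cell cannot be told apart. Of 7 retinal progenitor markers 6 were higher with Dox, and their summed level was 248.4 to 272.9 FPKM untreated and 929.5 to 1081.6 FPKM with Dox. All 6 tested genes of the neuron list (Tubb3, Stmn2, Elavl3, Map2, Neurog2 and Dll1) were lower. With Dcx, which was below the filter, the list summed to 168.3 to 172.2 and 87.9 to 92.5 FPKM. Most of these sums was Tubb3, at 118.53 and 116.78 FPKM untreated and 75.76 and 79.83 FPKM with Dox. Its log2 fold change was -0.59, and those of the other tested genes of the list ran from -1.18 (Elavl3) to -2.15 (Neurog2). Of 4 neural crest markers 3 were lower, with sums of 29.1 to 29.9 and 4.85 to 5.69 FPKM. None of 6 pluripotency markers passed in limma, with sums of 66.9 to 70.0 and 50.8 to 74.0 FPKM. Before adjustment 0 were higher and 1 lower (p below 0.05 in limma), beside 23.9% of all tested genes in either direction. Surface epithelium markers summed to 44.5 to 49.3 and 47.5 to 54.1 FPKM with Trp63 and Krt5 at or near 0, and mesoderm and endoderm markers to no more than 1.53 FPKM. The 13 mitochondrially encoded genes summed to 28920 and 37204 FPKM untreated and 29275 and 22706 FPKM with Dox, with overlapping groups. Singly none of the 13 passed in limma, but 12 had negative values. Before adjustment 5 were lower and 0 higher (p below 0.05 in limma), beside the same 23.9%. In 7 both Dox libraries were below both untreated ones, against a background of 26.9%. The part of these shifts in the values of the 10 genes was not tested.

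For each gene past the threshold, the 2 genes outside the lists with the most similar profile were found among 7221 genes of at least 10 FPKM. Likeness was the Euclidean distance between centred log2(FPKM + 1) values over the 4 libraries. For Ddit3 these were Tom1l1 (distance 0.0370) and Hadh (0.0422), for Atf5 Slc27a3 (0.0240) and Trim71 (0.0242), and for Phgdh Fam133b (0.0127) and Ei24 (0.0172). With 4 libraries in 2 groups such a profile is mostly the size of the group difference.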

How the data were processed

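Poly(A) RNA of 4 organoid libraries was sequenced in paired ends. The authors deposited FPKM values per gene and library, rounded to 2 decimals. STAR and Cuffdiff and the build mm10 are named per the submitters' processing notes, with no roles or versions; the annotation release and strand setting are not given in the sources used here. Depth was fitted from the steps of values below 0.3 FPKM, of which 78.6% to 81.1% were whole fragments within 0.1, against 19.3% to 20.0% with shuffled lengths.

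Values were transformed to log2(FPKM + 1), so fold changes of low genes are understated. Genes whose library mean reached 1 FPKM were tested with limma 3.58.1 (R 4.3.3, lmFit and eBayes with trend, no covariate, two-sided, Benjamini-Hochberg over 13931 genes, threshold 0.05). The fit was tested on simulated data. Coordinates, exon overlaps and transcript lengths come from GENCODE M21 (GRCm38) and promoters from RefSeq (GRCm38.p6). Members and lists were chosen with earlier results of these data known. Named genes are the 10 members, the eIF2alpha kinases, Psph, Mettl3, up to 5 called genes per list (or its most abundant gene) and 2 similar genes per called member, while further list genes were named after their values were seen. There were 14 alternatives: pseudocounts of 0.1 and 5, no filter or one of 5 FPKM, TPM rescaling, median centring, quantile normalization, eBayes without trend or robust, the replicate block, and each library left out.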

Additional observations from a re-analysis of the deposited data

How the results depend on the processing

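The direction of the 9 genes other than Asns held in all 14 alternatives tried, apart from Trib3, which was not tested with the filter of 5 FPKM and held in the other 13, and the median over the 10 genes stayed between 0.24 and 0.33. The number of the 10 genes called did not hold. It was 1 higher with no filter, TPM rescaling, eBayes without trend or the replicate block, and 0 lower with no filter, eBayes without trend or the replicate block. Atf5 had an adjusted p in limma of 0.128 with no filter, 0.0913 with TPM and 0.0649 without trend, and Phgdh 0.0692 with no filter and 0.0517 without trend. Leaving out 1 library gave 0 to 1 higher and 0 to 0 lower of the 10, 2 to 4 higher and 0 to 1 lower of the list genes, and 262 to 320 higher and 331 to 377 lower of all genes. These fits have fewer samples and assume that the lone library of a group varies like the other group. Over all genes 336 were higher and 409 lower with no filter, and 408 and 413 with a filter of 5 FPKM, which tests fewer genes, against 619 and 678. With no filter 0 list genes were lower. Beyond these stated constructions the cause was not tested. The replicate block left 532 and 602 calls and among the 10 genes and the named genes lost Atf5 and Phgdh. The protocol speaks of 2 rounds of library preparation for the duplicates but does not say whether the replicate numbers mark the rounds, and the labels give 1 batch date. Same-numbered libraries did not deviate together (correlation of deviations -0.0435 over 13931 genes), so the pairing is not established. Sign changes occurred when 1 library was left out, over ranges of log2 fold change from -0.14 to 0.027 for Asns, -0.056 to 0.087 for Txnrd1 and -0.12 to 0.019 for Eif2ak4, and with medians from -0.095 to 0.011 for the mitochondrial stress list and -0.056 to 0.078 for the heat shock and oxidative stress list. None of these had passed. Counting error at about 240 fragments, the fewest behind a value, is 6.45% of that value.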

Other observations

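The motif GGACT, a common form of the sequence in which the METTL3 complex methylates adenosine, was counted after the values were seen, on the sense strand of the longest coding transcript of each gene in GENCODE M21. Asns held 4 matches, Atf5 3, and Trib3, Chac1 and Psat1 2 each. Atf4, Ddit3 and Phgdh held 1 each, and Shmt2 and Mthfd2 held 0. Per kilobase this was 1.98 for Asns, 1.65 for Atf5, 1.12 for Ddit3, 0.580 for Atf4 and 0.528 for Phgdh, where the median over 11629 tested genes was 1.05 with quartiles of 0.635 and 1.51. The 3 genes past the threshold thus spanned from below the lower to above the upper quartile. A match is a description of the sequence, and methylation was not measured in these libraries.

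Among list genes short of the threshold and named after their values were seen, Aldh1l2, a mitochondrial folate dehydrogenase, was at 0.80 and 0.90 FPKM untreated and at 1.59 and 1.79 FPKM with Dox (log2 fold change 0.54, adjusted p = 0.0713 in limma). Slc38a2, a neutral amino acid carrier, was at 61.67 and 59.70 FPKM untreated and at 73.12 and 75.90 FPKM with Dox (log2 fold change 0.29, adjusted p = 0.0509 in limma). Slc1a5, a glutamine carrier, had lower values with Dox, at 8.96 and 7.39 FPKM untreated and at 6.19 and 5.61 FPKM with Dox (log2 fold change -0.41, adjusted p = 0.116 in limma).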
